A study of Mus musculus with 6 samples.

Results

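The 36 genes described here encode the machinery of autophagy, and they were read in ATAC-seq peak lists of mouse long-term haematopoietic stem cells (LT-HSCs) of aged and of young animals. The genes were taken by name, from the kinase complex that starts the process to the receptors, the transcription factor TFEB and the lysosomal membrane protein LAMP1. All 36 were found among the 21631 protein-coding genes of the RefSeq table for GRCm38.p6, the build also called mm10. The series holds 6 samples, 3 labelled aged and 3 labelled young, all of C57BL/6 mice and with no genotype change or drug named in either group. The cells were sorted from bone marrow as negative for lineage markers, Flk2 and CD34 and positive for c-Kit and Sca-1, and in both groups they were kept overnight in a salt solution with serum at 3% oxygen. The labels do not give ages in months, sex, or whether a sample pools several mice, so the spread between samples may be partly technical.

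In autophagy a cell wraps part of its own contents in a double membrane and delivers it to the lysosome. The ULK1 kinase complex starts the process, a lipid kinase complex built around VPS34 marks the site, ATG9 and ATG2 supply membrane, and ubiquitin-like enzymes attach the Atg8 proteins LC3 and GABARAP to it. Blood stem cells depend on the pathway, and mice whose blood cells lack Atg7 or Rb1cc1 lose stem cell function. ATAC-seq marks DNA that a transposase can enter, so a peak at a gene start reports open chromatin and not the amount of RNA.

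Each list gives peaks with a −log10 p from the authors' peak caller, which belongs to the peak and depends on the depth of its own sample. A gene counted as called in a list when at least 1 peak reached the 1 kb on either side of its start or end. Values were compared as percentiles within a list. The list percentile places a peak among all peaks of its list by −log10 p, and the gene-end rank places a gene's best peak among the best peaks of all 21631 genes of that list. Called gene ends of any kind had high list percentiles. Over all genes called at an end the median was 94.4, 92.8 and 92.8 in aged replicates 1 to 3. In young replicates 1 to 3 it was 95.5, 73.1 and 92.0. The read depth is unknown, and the lists differed in how many peaks they hold, from 110596 to 263956 distinct intervals. Young replicate 2 stood apart in that its −log10 p took 200 different values, against 2302 to 17537 in the other lists, and 5027 of its peaks had a −log10 q of 2 or more, against 22627 to 59436. Of 8 stem cell markers, Kit, Procr, Meis1 and Hlf had a called gene end in all 6 lists, Ly6a in 2 aged and 2 young lists, and Slamf1 in no aged and 1 young list. Of the markers of other cells, Mpo alone, a myeloid enzyme, was called in all 6, and none of the 3 progenitor, 5 B-cell, 5 T and NK cell, 4 erythroid or 4 endothelial and stromal markers was.

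Autophagy genes were called at their ends in nearly every list. Of the 36, 33, 34 and 31 were called in aged replicates 1 to 3, and 35, 29 and 34 in young replicates 1 to 3. The mean was 32.7 ± 1.53 (SD, n = 3) genes in aged and 32.7 ± 3.21 (SD, n = 3) in young lists, so the ages did not differ in this count. Of the members, 27 of 36 (75%) were called in all 6 lists, against 35.1% of all protein-coding genes. The 9 others were Ulk1, Becn1, Pik3c3, Ambra1, Atg4c, Atg4d, Atg7, Gabarapl1 and Sqstm1. Young replicate 2 lacked 7 members and aged replicate 3 lacked 5, and these were also the lists in which the fewest genes of any kind were called, 55.0% and 53.1% of all genes.

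**Figure D1:**
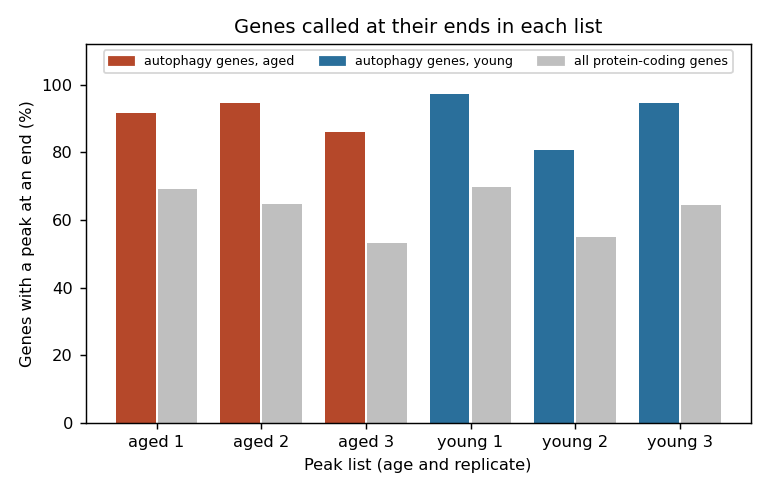
Share of genes with a called gene end, in percent, in each of the 6 lists, for the 36 autophagy genes and for all 21631 protein-coding genes. The autophagy genes lie between 80.6% and 97.2% in every list, above all genes at 53.1% to 69.7%, and both sets dip in aged replicate 3 and young replicate 2.

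The called ends were mostly gene starts. Of the 30 members with a known strand, the start end was called in all 6 lists for 21 and the far end for 1. This count was not taken for all genes. For 30 of the 36 genes a promoter entry of RefSeq was at hand, which spans 250 bases before and 50 bases after the annotated start. Peaks reached 27, 29 and 25 of these 30 promoters in the aged lists and 27, 18 and 29 in the young lists. In all 6 lists 17 of 30 (56.7%) were called, against 27.2% of all promoters. The summits of the strongest promoter peaks had a median position of −35 bp from the start, with quartiles at −124 and 5.5 bp, close to the −50 bp of all promoters. Only peaks that reached a promoter entry were read, so summits near the start were favoured by that choice. The member promoters were also rich in CpG, with a median of 20 CpG dinucleotides and 61.7% G and C, against 14 and 57% for all promoters. Promoters called in all 6 lists had medians of 24 and 63.3%, and those called in none 3 and 46.7%, so composition moved with being called across the genome, and its part in the members' high call rate was not tested.

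The 250 bases before the RefSeq start are printed for 8 members on which the results below turn, 5′ to 3′ on the strand of the gene, from RefSeq promoters of GRCm38.p6. Capitals mark matches on either strand to the E-box core CACGTG, the CLEAR core TCACGTGA bound by TFEB, the ETS core CCGGAAG and the NF-Y box CCAAT. The E-box core lies inside the CLEAR core. The interval of Uvrag is chr7:99141145-99141394 on the minus strand, of Atg3 chr16:45158579-45158828 on the plus strand and of Atg2a chr19:6241418-6241667 on the plus strand. Atg14 is at chr14:47568435-47568684 and Atg16l2 at chr7:101302089-101302338, both on the minus strand. Tfeb is at chr17:47736787-47737036, Gabarapl1 at chr6:129532942-129533191 and Gabarap at chr11:69991120-69991369, all on the plus strand. The promoters of Uvrag, Atg3, Atg2a, Atg14, Atg16l2 and Tfeb were called in all 6 lists, and those of Gabarapl1 and Gabarap in 3 lists each. By gene-end rank Atg2a was higher in aged lists. Atg14, Atg16l2, Tfeb, Gabarapl1 and Gabarap were higher in young lists. That rank takes the best peak at either end, so it need not come from the printed bases, and at Gabarap it did not.
Uvrag: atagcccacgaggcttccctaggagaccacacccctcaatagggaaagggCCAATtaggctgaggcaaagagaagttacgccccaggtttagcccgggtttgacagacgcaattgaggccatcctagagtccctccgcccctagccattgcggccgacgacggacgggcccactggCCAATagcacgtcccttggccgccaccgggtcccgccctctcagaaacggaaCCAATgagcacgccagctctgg
Atg3: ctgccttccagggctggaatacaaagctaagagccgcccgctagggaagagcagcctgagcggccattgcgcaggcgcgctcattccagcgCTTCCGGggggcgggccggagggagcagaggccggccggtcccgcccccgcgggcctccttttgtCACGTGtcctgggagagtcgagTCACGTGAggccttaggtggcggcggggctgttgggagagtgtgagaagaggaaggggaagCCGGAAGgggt
Atg2a: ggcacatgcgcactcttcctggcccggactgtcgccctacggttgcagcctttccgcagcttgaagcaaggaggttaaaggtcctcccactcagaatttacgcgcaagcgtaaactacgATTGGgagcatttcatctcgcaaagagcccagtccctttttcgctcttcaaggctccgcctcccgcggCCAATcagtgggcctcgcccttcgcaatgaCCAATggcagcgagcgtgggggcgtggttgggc
Atg14: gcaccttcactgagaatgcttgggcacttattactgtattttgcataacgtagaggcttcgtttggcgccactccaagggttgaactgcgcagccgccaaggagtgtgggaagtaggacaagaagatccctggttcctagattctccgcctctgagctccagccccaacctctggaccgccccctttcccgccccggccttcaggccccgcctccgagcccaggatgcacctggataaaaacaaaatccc
Atg16l2: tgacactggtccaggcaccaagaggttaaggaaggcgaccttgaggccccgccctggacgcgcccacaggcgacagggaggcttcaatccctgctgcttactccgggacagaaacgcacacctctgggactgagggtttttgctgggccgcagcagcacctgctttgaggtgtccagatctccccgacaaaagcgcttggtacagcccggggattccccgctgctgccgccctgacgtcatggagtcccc
Tfeb: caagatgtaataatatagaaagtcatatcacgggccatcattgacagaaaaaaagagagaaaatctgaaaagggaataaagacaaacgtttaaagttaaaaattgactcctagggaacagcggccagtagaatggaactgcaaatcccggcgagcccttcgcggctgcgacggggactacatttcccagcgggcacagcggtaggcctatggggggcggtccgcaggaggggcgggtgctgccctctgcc
Gabarapl1: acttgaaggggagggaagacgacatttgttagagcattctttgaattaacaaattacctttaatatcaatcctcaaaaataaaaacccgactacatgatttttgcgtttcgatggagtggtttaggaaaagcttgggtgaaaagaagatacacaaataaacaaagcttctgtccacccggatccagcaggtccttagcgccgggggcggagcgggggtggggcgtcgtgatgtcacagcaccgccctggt
Gabarap: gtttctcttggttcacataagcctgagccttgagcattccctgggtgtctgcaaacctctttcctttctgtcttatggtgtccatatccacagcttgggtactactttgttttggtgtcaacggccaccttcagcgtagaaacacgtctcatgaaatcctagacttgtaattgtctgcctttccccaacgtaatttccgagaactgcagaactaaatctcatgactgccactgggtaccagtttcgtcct

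Uvrag and Atg2a each hold 3 CCAAT boxes in these windows, the nearest beginning at −22 bp in Uvrag and −33 bp in Atg2a. Atg3, which encodes the enzyme that hands LC3 to its lipid, holds a CLEAR core that begins at −72 bp from the start, a further E-box core at −94 bp and ETS cores at −159 and −11 bp. Over the whole promoter entries of 300 bases, the CLEAR core was found in 1 of 30 members (3.33%), Atg3, against 1.29% of all promoters and 2.19% of those called in all 6 lists. The E-box core was found in 5 of 30 (16.7%), in Atg14, Atg3, Atg5, Atg7 and Lamp1, against 8.07% of all promoters and 11.1% of those called in all 6 lists. The E-box of Atg14 lies in the 50 bases after the start and so outside the printed run. The NF-Y box was in 7 of 30 members (23.3%) against 39.2% of all promoters and 46.5% of those called in all 6 lists. The ETS core was in 3 of 30 (10%), against 12.3% and 22.3%. The forkhead core TGTTTAC and the NRF1 motif were in none of the 30 members, in 2.95% and 1.37% of all promoters, and in 2.15% and 2.43% of those called in all 6 lists. A match only says that these letters are in the window.

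The initiation genes were called in nearly every list. These are the kinases Ulk1 and Ulk2, the scaffold Rb1cc1 (FIP200), and the adaptors Atg13 and Atg101, and 4 of the 5 had a called end in all 6 lists. The share of all genes was 35.1%, and the counts of the steps below stand against the same share. The steps are small sets, and differences between them were not tested. Atg13 had end percentiles of 95.6, 97.9 and 98.2 in aged replicates 1 to 3 and of 98.4, 96.9 and 99.0 in young replicates 1 to 3. Every list thus placed its peak in the upper 5% of peaks, although an end of the gene Harbi1 lies in the same region, at chr2:91710282-91711266. Among genes its place was lower, with gene-end ranks from 70.0 in aged replicate 1 to 95.0 in young replicate 3. Ulk1, whose kinase activity switches the pathway on, had end percentiles of 98.4, 98.6 and 95.5 in aged lists and of 99.3, 0 (no peak) and 96.0 in young lists, so young replicate 2 alone lacked a peak. A region inside Ulk1, at chr5:110807976-110808665 and centred 1761 bp from the start, was called in all 6 lists.

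The nucleation genes had the smallest share called in all 6 lists among the steps. They make up the VPS34 lipid kinase complex, with the kinase Pik3c3, its partner Pik3r4 and the regulator Becn1, and with Atg14, Uvrag and Ambra1, and 3 of the 6 were called at their ends in all 6 lists. Uvrag, which directs the complex to endosomes, stood highest, with end percentiles of 99.9, 99.8 and 99.2 in aged lists and of 100, 99.9 and 99.6 in young lists. Its region at chr7:99140824-99141866 held the promoter printed above, and aged and young values overlapped. Becn1 had end percentiles of 97.5, 92.2 and 0 (no peak) in aged lists and of 90.5, 88.8 and 86.5 in young lists.

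Pik3c3 and Ambra1 had their strongest regions away from their annotated ends. Pik3c3, the kinase itself, had a peak at an end in young replicate 1 only, at the 24.3 percentile. A region 7507 bp from the nearer annotated end was called in every list, at percentiles of 98.0, 97.1 and 93.8 in aged lists and of 96.1, 42.7 and 98.6 in young lists. No promoter entry was at hand for Pik3c3, so whether this region is a start of the gene was not tested. Ambra1, a scaffold that ties BECN1 to ubiquitin ligases, had its strongest region within the gene at chr2:91834980-91835524, 105114 bp from the start. The percentiles there were 95.9, 93.2 and 97.1 in aged lists and 65.0, 99.7 and 91.8 in young lists. Its start end was also called in 5 lists, at percentiles of 95.1, 93.3 and 20.01 in aged lists and of 95.9, 0 (no peak) and 86.6 in young lists.

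The membrane-expansion genes were called in all 6 lists, 5 of 5. These are the lipid transfer proteins Atg2a and Atg2b, the membrane protein Atg9a, and Wipi1 and Wipi2, which bind the lipid that VPS34 makes. Wipi1 had end percentiles of 99.6, 99.7 and 99.2 in aged lists and of 99.0, 99.1 and 99.6 in young lists. Atg2b and Atg9a both fell to the 42.7 percentile in young replicate 2, against 90.6 or more in the other 5 lists for Atg2b and 97.4 or more for Atg9a. The median of all genes called at an end was also lowest in young replicate 2, at 73.1.

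Of the 10 conjugation genes, 7 were called at their ends in all 6 lists. Atg7 activates ATG12 and the Atg8 proteins, Atg3 and Atg10 carry them on, ATG12 with Atg5 and Atg16l1 forms the final ligase, Atg16l2 is a relative of Atg16l1, and the Atg4 proteases trim the Atg8 proteins. Atg3 had end percentiles of 99.5, 99.8 and 96.2 in aged lists and of 99.4, 99.4 and 97.9 in young lists, and its ages overlapped. Atg12 had 95.1, 97.5 and 92.2 against 97.4, 99.1 and 95.7, also overlapping.

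Atg7 and Atg4c were the conjugation genes with the fewest calls. Atg7 had end percentiles of 92.4, 92.1 and 0 (no peak) in aged lists and of 99.1, 0 (no peak) and 90.7 in young lists. These peaks lay at the annotated start of Atg7, and its far end, 17 bp from an end of the gene Vgll4, had no peak in any list. The RefSeq promoter entry at hand for Atg7 belongs to a start 27969 bp inside the gene, so it does not cover the called start. That inner entry was reached by no peak in any list, and it held 4 CpG dinucleotides, against 20 in the median member. Atg4c was called at neither annotated end in any list, yet a region at chr4:99193750-99194439 that holds its RefSeq start, 4935 bp from the annotated end used, was called in 2 aged and 2 young lists. Its percentiles there were 94.8, 89.3 and 0 in aged lists and 41.8, 0 and 84.8 in young lists, where 0 stands for no peak.

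Of the 5 Atg8 genes, which encode the LC3 and GABARAP proteins that coat the growing membrane, 4 were called in all 6 lists. Gabarapl2 had end percentiles of 99.7, 95.7 and 75.8 in aged lists and of 99.2, 99.1 and 97.9 in young lists. Map1lc3b, which encodes the LC3 form most used as a marker of autophagy, had 91.3, 93.1 and 68.6 against 94.5, 88.8 and 93.6. For both genes aged replicate 3 was the lowest list by end percentile and the ages overlapped. The 88.8 of Map1lc3b in young replicate 2 came from its far end, 63 bp from an end of the gene Zcchc14. At the Map1lc3b start young replicate 2 stood at 55.6, below the 68.6 of aged replicate 3. By gene-end rank the lowest list of Map1lc3b was aged replicate 1, at 57.6. Gabarapl1 was called in 1 aged and 3 young lists, the only member whose ages differed by 2 lists.

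Among the receptors, which tie cargo to LC3, Nbr1 and Optn were called in all 6 lists and Sqstm1 (p62) in 5. Nbr1 had end percentiles of 99.9, 99.8 and 99.4 in aged lists and of 99.5, 99.6 and 99.7 in young lists, and an end of a neighbouring gene lies within its strongest region. Sqstm1 had 94.4, 90.4 and 62.8 against 96.2, 0 (no peak) and 86.6. Nbr1 therefore ranked above Sqstm1 in every list. Lamp1, the lysosomal membrane protein, had 93.5, 94.5 and 91.5 in aged lists and 96.6, 42.7 and 92.5 in young lists.

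The strongest region of each gene, taken over the gene and 1 kb on each side after peaks of all lists were merged, was called in all 6 lists for 29 of 36 members (80.6%), against 36.5% of all genes. It touched an end window for 30 of the 36, and it held the RefSeq start for 25 of the 30 genes with a promoter entry. For 11 of the 36 it also held an end of another gene, so that an open site could not be given to the member alone. The 36 loci held 854 merged regions, of which 32 (3.75%) were called in all 6 lists, against 1.09% of all regions. A single list gave 669 of the 854 (78.3%), against 85.2% of all regions. Their mean density over lists had a median of 1.16 peaks per 10 kb, against 1.06 for all genes. Peaks in the member loci made up 0.121 ± 0.00664% (SD, n = 3) of peaks in aged and 0.118 ± 0.0203% (SD, n = 3) in young lists, a difference smaller than the spread between lists.

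**Figure D2:**
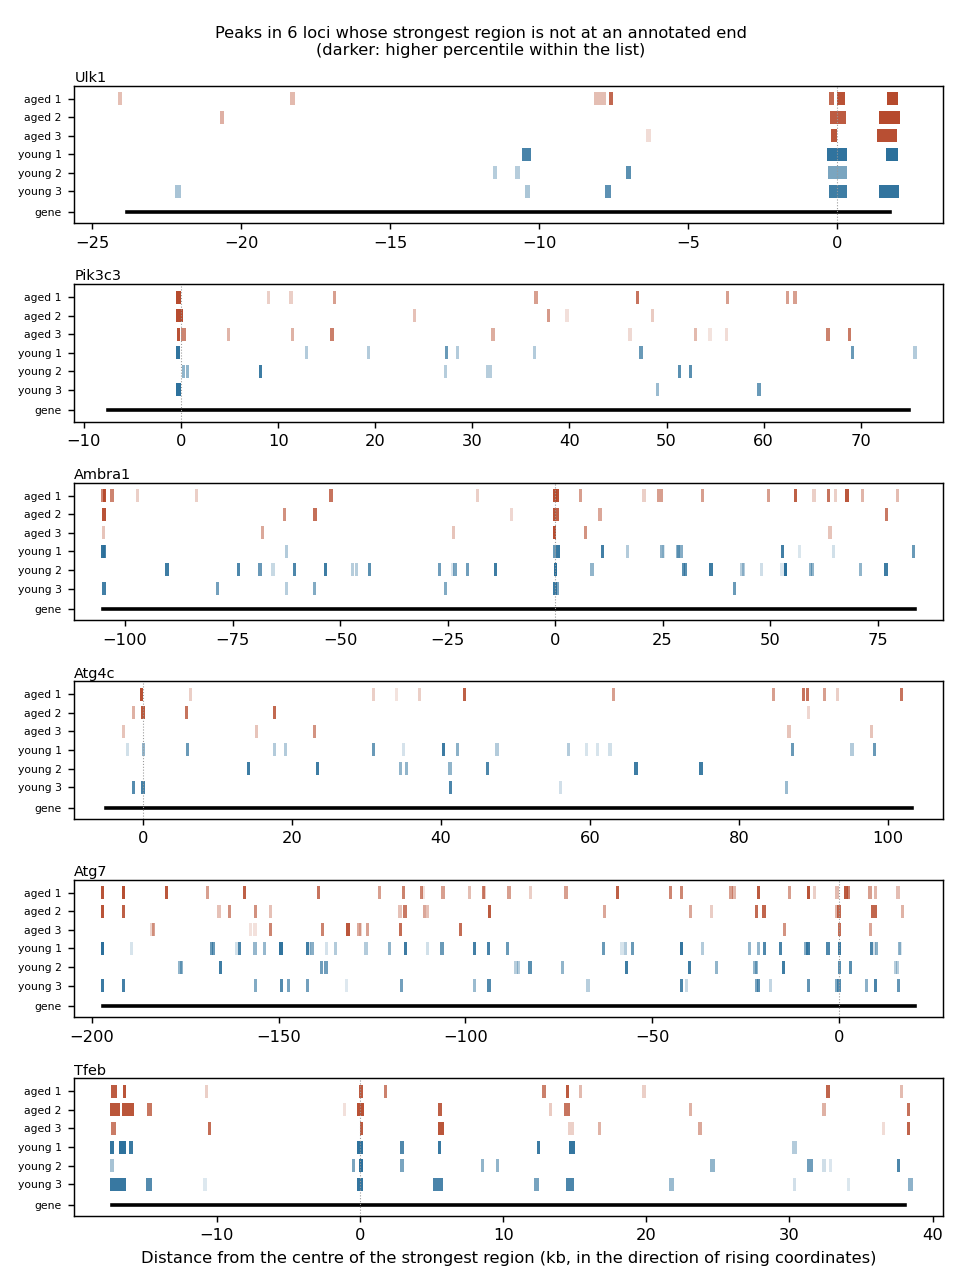
Peaks of the 6 lists (rows, darker for a higher list percentile) in the 6 loci whose strongest region touches no annotated end, by distance in kb from the centre of that region, with the gene as a black bar. In Ulk1, Pik3c3, Ambra1 and Tfeb every list has a peak at the centre, while Atg4c and Atg7 lack it in some lists.

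The summit of the strongest promoter peak moved between lists by more than 150 bp in 19 of the 29 members with such a peak. Of the 17 members with a summit in all 6 lists, 2, Atg101 and Wipi1, had aged and young positions that did not overlap. This is near the 9% of all promoters called in all 6 lists. At Atg101, which stabilises ATG13, it lay at −22, −21 and −21 bp from the start in aged lists and at −344, −273 and −301 bp in young lists. Its end percentiles overlapped, at 96.5, 95.8 and 92.8 in aged lists and 97.6, 98.2 and 95.7 in young lists. At Wipi1 the summit lay farther upstream in aged lists, at −421, −431 and −536 bp, than in young lists, at −289, −315 and −287 bp, the opposite order to Atg101. Lamp1, with no promoter peak in young replicate 2, had summits at 53, 56 and 101 bp in aged lists and at −9 and 39 bp in the other young lists. For promoters missing a list, such as that of Lamp1, no share of all promoters was taken. Atg101, Wipi1 and Lamp1 were singled out after the values had been seen, and their positions were not tested.

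**Figure D3:**
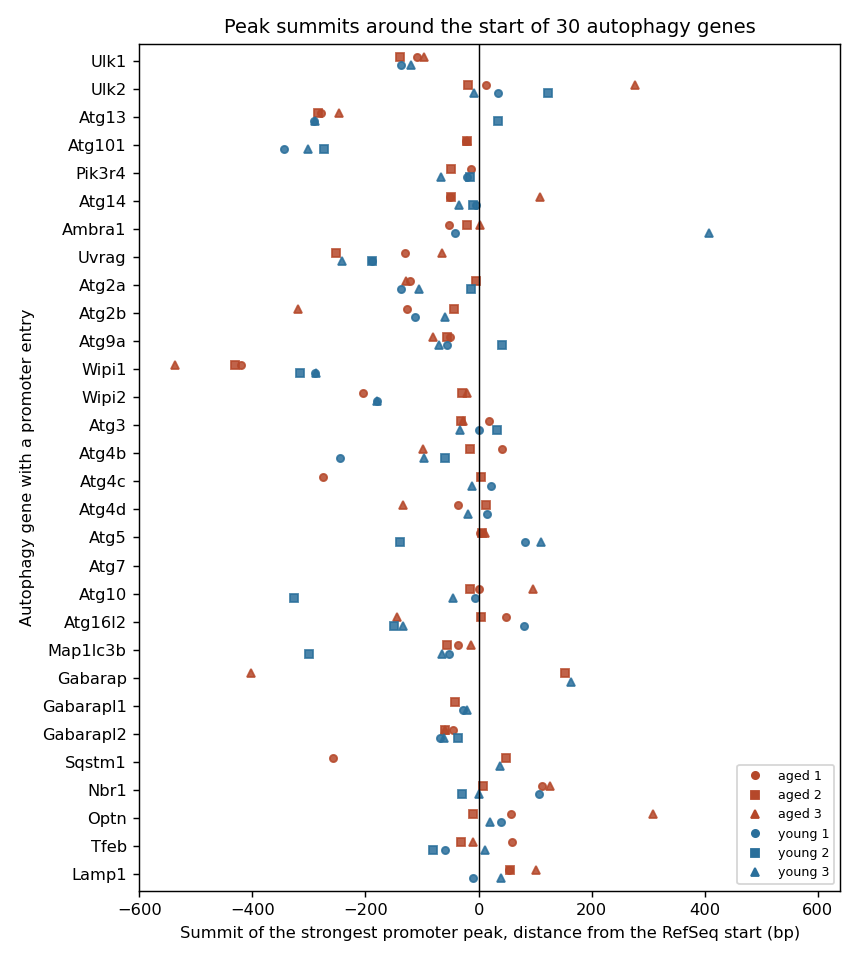
Summit of the strongest peak reaching the promoter entry, in bp from the RefSeq start (vertical line), for the 30 autophagy genes with an entry. The median summit lies at −35 bp, Atg7 has none, and the aged and young points of Atg101 and Wipi1 sit apart.

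Few members differed between ages in how often they were called. No member had an end called in all 3 lists of an age and in none of the other, where 0.208% of all genes had an end in all aged and no young lists and 0.287% the reverse. Of the members, 4 were called in more aged than young lists and 3 in more young than aged lists, against 19.7% and 20.5% of all genes, and 29 in equal numbers. These shares are not on the same footing, as 75% of members but 35.1% of all genes were called in all 6 lists. None of the 854 regions of the member loci was called in all lists of an age and none of the other, against 0.0502% of all regions for aged and 0.0608% for young. At shares this small, the absence of such members and regions says little about them. With 3 samples against 3 an exact 2-sided permutation test cannot give a p below 0.1, so no difference of a single gene could pass 0.05, and the smallest adjusted p over all 21631 genes was 0.949 (Benjamini-Hochberg).

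By gene-end rank, 1 member was higher in every aged than in every young list and 6 were higher in every young list. These are 2.78% and 16.7% of the members, against 3.99% and 2.93% of all genes. Among the 27 members called in all 6 lists the counts were 1 and 5, against 5.74% and 4.32% of all such genes. The 6 were Rb1cc1, Atg14, Atg16l2, Gabarap, Gabarapl1 and Tfeb. The count of 6 fell to 1 when the RefSeq promoter took the place of both gene ends (against 2.43% of all promoters, and with no promoter entry for Rb1cc1) and to 1 when peaks below a −log10 q of 2 were left out (against 1.25% of all genes). By list percentile, which unlike the rank depends on the length of the list, Gabarap alone of the 6 kept groups that do not overlap (1.66% of all genes young higher), and Atg2a and Optn stood higher in aged lists (1.88% of all genes). The count of 1 with aged higher became 3 without aged replicate 1, 4 without aged replicate 3, 4 without young replicate 1, and 2 without young replicate 2 or 3. The shares of all genes rose too, to 7.81%, 7.19%, 7.66%, 6.28% and 9.27% in that order. The median rank of the members was 73.2, 78.3 and 74.0 in aged lists and 81.0, 81.6 and 78.6 in young lists, a mean of 75.2 ± 2.72 against 80.4 ± 1.59 (SD, n = 3 each). The median of all genes called in all 6 lists was 80.5 ± 0.325 in aged and 79.4 ± 2.12 in young lists. These medians are not on the same footing, as that of the members also holds members not called in every list. The difference of members was −5.24 in aged minus young, and it was −1.26 over promoters. Its sign turned at the stricter −log10 q, to 6.99 (SD within ages 14.4), and by list percentile, to 1.12 (SD within ages 3.56). At the stricter −log10 q young replicate 2 kept 5027 peaks, against 22627 to 59436 in the other lists.

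Atg2a, which moves lipid from the endoplasmic reticulum to the growing membrane, was the member that stood higher in aged lists. Its gene-end ranks were 93.9, 94.9 and 95.2 in aged lists and 84.3, 86.3 and 90.4 in young lists. The lowest aged list thus lay above the highest young list. The means were 94.7 ± 0.69 and 87.0 ± 3.12 (SD, n = 3), with an exact 2-sided permutation p of 0.1, and an adjusted p of 0.949. The peaks lay at chr19:6241152-6242664, a region that holds the printed Atg2a promoter, and Atg2a stood higher in every aged list in each of the settings tried.

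Gabarap stood higher in young lists, but not at its start. Its gene-end ranks were 77.0, 87.6 and 91.1 in aged lists and 94.0, 99.2 and 97.8 in young lists, 85.2 ± 7.37 against 97.0 ± 2.70 (SD, n = 3, exact 2-sided permutation p of 0.1). These values came from chr11:69995317-69995936, a region 677 bp past the far end of the gene, which also holds an end of the gene Phf23, so the Gabarap and Phf23 ends cannot be told apart there. At the start the Gabarap end percentiles were 96.5, 90.8 and 61.9 in aged lists and 97.7, 0 and 92.6 in young lists, and they overlapped.

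Gabarapl1 was called at its start end alone, and Tfeb at both ends. Gabarapl1 ranked at 15.5, 52.9 and 23.4 in aged lists, of which the first and the third are the rank of genes with no peak, and at 66.2, 72.4 and 54.1 in young lists. Young lists were thus all above aged ones, though by a small margin between aged replicate 2 and young replicate 3. The Gabarapl1 region at chr6:129532649-129533465 also holds an end of the noncoding gene 1700101I11Rik, 92 bp away. Tfeb, the factor that switches on lysosome and autophagy genes, ranked at 58.7, 63.5 and 64.6 in aged lists and at 85.9, 77.6 and 69.3 in young lists, 62.3 ± 3.14 against 77.6 ± 8.29 (SD, n = 3, exact 2-sided permutation p of 0.1). In aged replicate 3 and young replicate 2 the Tfeb rank came from its far end, and at the start alone the percentiles were 91.8, 91.2 and 66.8 against 98.7, 31.0 and 92.5, which overlapped. Its strongest region, at chr17:47754087-47754583 and 17298 bp from the start, had percentiles of 87.3, 94.1 and 88.2 in aged lists and of 97.1, 99.1 and 95.4 in young lists. These groups did not overlap, but the same comparison of strongest regions was not counted over the other members or over all genes.

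The other 3 differed by less, Atg14 and Atg16l2 at their starts and Rb1cc1 at the end of lower coordinate, as its strand was not at hand. Rb1cc1 ranked at 71.8, 75.5 and 76.7 in aged lists and at 77.7, 81.6 and 81.4 in young lists. By list percentile its aged minus young difference had the other sign, at 1.14, with young replicate 2 lowest at 88.8. Atg14, which brings the VPS34 complex to the forming autophagosome, ranked at 75.2, 78.4 and 83.8 against 84.4, 86.3 and 84.0, a gap of less than 1 rank between aged replicate 3 and young replicate 3. Atg16l2 ranked at 70.5, 82.7 and 79.3 against 88.8, 88.8 and 82.8, a gap below 0.1 rank between aged replicate 2 and young replicate 3. Its groups overlapped when the centre of a peak had to lie in the window. Over promoters Atg16l2 kept groups that do not overlap, Atg14 did not, and Rb1cc1 had no entry. For all 3 the order of the mean ranks turned when peaks below a −log10 q of 2 were left out. The aged minus young differences became 6.65 for Rb1cc1, 8.04 for Atg14 and 5.34 for Atg16l2. Young replicate 2 kept 5027 of its 254869 peaks at that threshold, and whether this list turned the order was not tested.

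**Figure D4:**
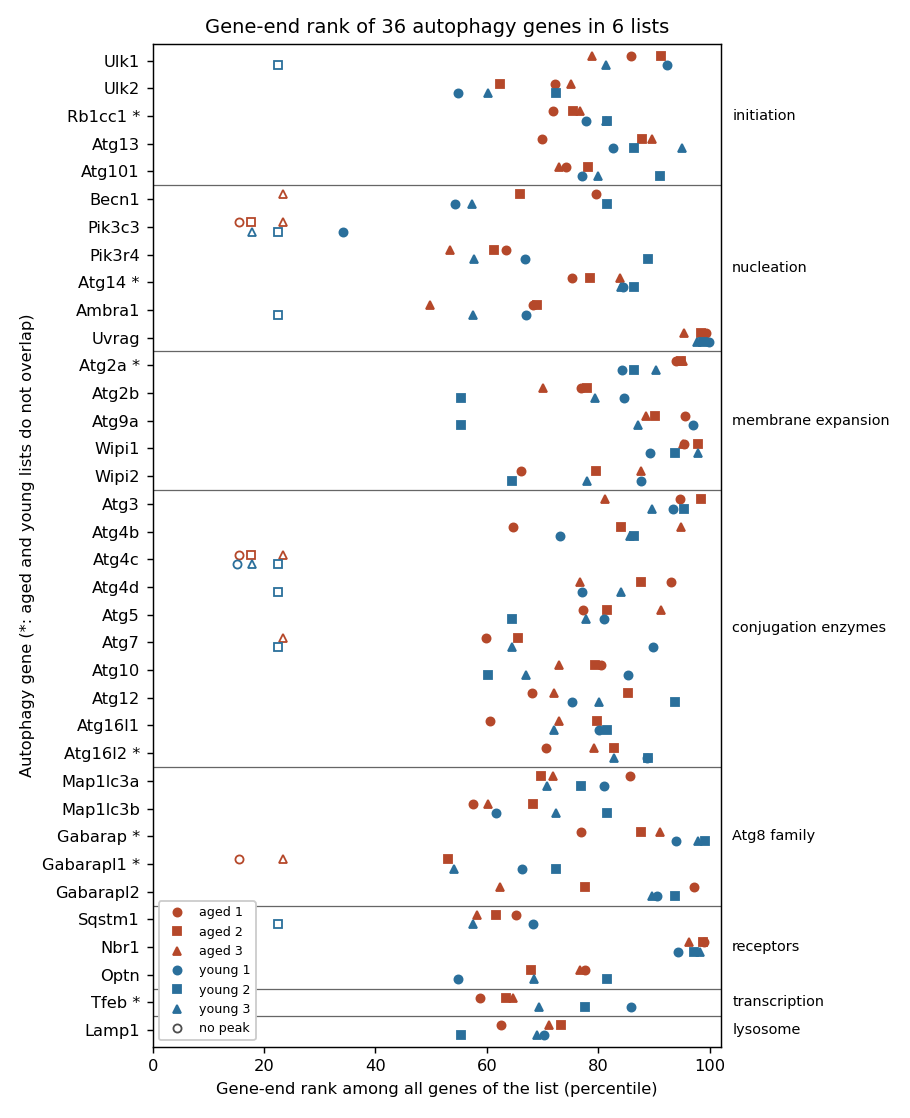
Gene-end rank, in percentiles among all 21631 genes of a list, of the 36 autophagy genes in the 3 aged and 3 young lists, with open symbols where no peak was called. The 7 genes with an asterisk have aged and young lists that do not overlap, Atg2a with aged higher and the other 6 with young higher.

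Beyond the members, 60 further genes of the pathway were read from a list of regulators, fusion factors, other receptors and lysosomal genes. Of these, 40 were called at an end in all 6 lists, against 35.1% of all genes, and Atg4a, a protease of the Atg4 family, in none. The upstream kinases and regulators of mTORC1 and AMPK gave 11 of 15, other autophagosome genes 6 of 11, other receptors 8 of 10, fusion factors 6 of 11, and lysosomal and transcription genes 9 of 13. By gene-end rank, Sh3glb1, Vps39 and Mcoln1 were higher in every aged list, and Bnip3 and Lamp2 were among those higher in every young list. Of all genes, 3.99% were higher in every aged list and 2.93% in every young list. Bnip3, a mitochondrial receptor, ranked at 93.6, 96.6 and 96.9 in aged lists and at 99.0, 98.5 and 98.6 in young lists. Lamp2, a partner of LAMP1 in the lysosomal membrane, ranked at 70.0, 68.0 and 68.3 against 73.2, 72.4 and 77.7. Mcoln1, a lysosomal calcium channel that acts on TFEB, ranked at 75.4, 75.4 and 88.5 against 70.0, 46.9 and 75.1. In none of these 3 genes did an aged and a young list overlap, but each had an adjusted p of 0.949 in the exact permutation test over all genes.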

How the data were processed

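ATAC-seq peak lists of 3 aged and 3 young samples were used, grouped and numbered by their titles. The authors worked on mm10 and named Bowtie2, SAMtools, Picard and MACS2, per the submitters' processing notes. What each tool did, its version and settings, the read depth and any transposase shift are not given in the sources used here. In 99.9985% of rows the deposited score equalled the whole part of 10 times the −log10 p, with 1000 as its limit. The deposited fold enrichment, a ratio to that sample's background, was used in an alternative only. The −log10 p and −log10 q values deposited by the authors depend on that sample's depth, so lists were compared by percentiles. They hold 1 list per sample, called separately. The files record no depth, so no counting intervals could be given.

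Rows with the same start and end were kept once, with the highest −log10 p. Gene ends and promoters came from RefSeq tables of GRCm38.p6, which give no exons, so regions were placed by distance only. Ties in rank took their mean rank, and genes with no peak tied at the bottom. A peak counted with an overlap of at least 1 bp. Genes were compared by an exact 2-sided permutation test over samples with Benjamini-Hochberg adjustment over all genes, and by whether the aged and young lists overlap. The members and lists were chosen with earlier results of these data known. All 36 members could be named. Values in every list were due for members whose ages did not overlap, whose calls differed by 2 lists, that were missing in 2 or more lists, or that ranked highest in their step, and some further members are given as examples. Analyses used Python 3.11.15, numpy 2.4.6, pandas 2.3.3 and scipy 1.17.1, and the ranking and overlap steps were tested on simulated data. Alternatives changed the window, the overlap rule, the peak threshold and the lists used. Some results on the further pathway genes are not reported here.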

Additional observations from a re-analysis of the deposited data

How the results depend on the processing

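The −log10 q threshold of 2 moved most values. Under it 7 members were called at an end in all 6 lists, against 8.88% of all genes. By their strongest region 8 were, a count for which no share of all genes was taken. Members called per list differed by 5.33 (aged minus young), the median rank by 6.99 and the share of peaks in member loci by −0.0353 percentage points. Of the members, 2 stood higher in aged and 1 in young lists, against 3.27% and 1.25% of all genes. Young replicate 2 kept 5027 peaks, against 22627 to 59436 in the other lists. The aged minus young rank differences of Rb1cc1, Atg14 and Atg16l2 turned to 6.65, 8.04 and 5.34. With promoters in place of gene ends, an alternative added after the data had been seen, 17 of 30 were called in all 6 lists, the median rank differed by −1.26 and 1 member stood higher in young lists. Without both aged replicate 3 and young replicate 2, also added later, 7 members stood higher in aged and 8 in young lists, against 11.2% and 16.6% of all genes. With list percentiles, added later too, 2 stood higher in aged and 1 in young lists, the median differed by 1.12 and Rb1cc1 by 1.14. The cause was not tested. Leaving out each list in turn gave 1 to 4 members higher in aged lists, against 6.28% to 10.6% of all genes. It gave 7 to 9 higher in young lists, against 4.89% to 10.8%. Called in all 5 lists left were 27 to 31 members, against 35.3% to 43.6% of all genes. Rank differences were −6.80 to −4.28. Narrower and wider windows, peak centres and the strongest 100000 peaks moved no count by over 1.5 times.

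Samples with the same number in their titles did not deviate together, with correlations of 0.0334, −0.136 and −0.152. With the number as a replicate block, 11 members were higher in young and 1 in aged lists in all 3 pairs, against 7.83% and 10.1% of all genes.

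Unknown depth, 3 samples per age, 1 list with few distinct −log10 p values and end windows shared with neighbouring genes limit what these lists show.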
